A study of Homo sapiens with 4 samples.

Results

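The 28 genes described here are those that make cholesterol and fatty acids in human cells, with the proteins that sense sterols and switch the pathway on. The rule lists gene names and uses no measured value, though it was set with earlier results of these data known. It holds 7 mevalonate pathway enzymes, 11 enzymes of squalene and sterol synthesis, 6 SREBP regulators and sterol carriers, and 4 lipogenic enzymes. All 28 were found, by Ensembl identifier through GENCODE release 44, among the 58735 genes of the deposited table. RNA-seq was carried out on cells that the labels call NB4, a line of human acute promyelocytic leukemia, in 2 control libraries with no treatment and 2 libraries from cells given GNE-987. A legend of the study gives 25 nM for 1 day. GNE-987 is a bifunctional degrader, a compound that brings its target proteins to the VHL ubiquitin ligase. Nothing in the labels or the methods says that replicate libraries came from separate cultures, so P values measure the spread between these libraries, which may be technical. In bulk RNA, fewer cells of a type and less RNA per cell cannot be told apart.

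Cholesterol is built from acetyl-CoA through mevalonate, isopentenyl diphosphate, farnesyl diphosphate and squalene, and squalene is then closed to lanosterol and trimmed to cholesterol. The pathway is set by SREBP-2, encoded by SREBF2, and fatty acid synthesis by SREBP-1, encoded by SREBF1. When membrane sterol is low, SCAP carries the SREBPs from the endoplasmic reticulum to the Golgi, where they are cut and their active parts enter the nucleus. When sterol is high, INSIG1 and INSIG2 hold SCAP back. Nuclear SREBP binds sterol regulatory elements, usually beside a CCAAT box bound by NF-Y, and INSIG1 is itself one of its targets.

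The values are FPKM, a measure of reads divided by the length of the gene and by a total set for each library. Summed FPKM was 218486 and 227275 in the control libraries and 624137 and 612335 with GNE-987. Comparisons of levels between libraries, the marker sums below among them, therefore depend on the deposited scaling. Steps in the FPKM values gave back whole reads on genes, between 19085808 and 19279296 in control and between 12305559 and 12806878 with GNE-987. The treated libraries are thus the shallower pair. The totals that divide the FPKM values, from the same steps, were 2.30e+07 and 2.21e+07 in control and 8.36e+06 and 8.83e+06 with GNE-987. With GNE-987 these totals lie under the reads on genes of the same libraries. The share of summed FPKM on mitochondrially encoded genes was 16.1% and 19.4% in the control libraries and 40.6% and 39.7% with GNE-987, and its part in the results below was not tested. The NB4 label did not go with its defining markers. The summed level of 8 promyelocyte markers was 5.35 and 5.44 FPKM in the control libraries and 34.0 and 34.0 FPKM with GNE-987, with ELANE and CTSG at 0 in both control libraries, 4 of the 8 called higher and 1, CD33, lower. The summed level of 9 erythroid markers was 554 and 580 FPKM in control and 559 and 503 FPKM with GNE-987, with 4 called higher and 4 lower. The 5 megakaryocyte markers summed to 1.44 and 1.44 FPKM in control and to 6.33 and 7.49 FPKM with GNE-987, with 2 at 0 in both control libraries and 2 called higher. The 5 lymphoid markers summed to 17.2 and 16.2 FPKM and to 44.2 and 43.6 FPKM, with 2 at 0 in both control libraries and 1 called higher. Over all tested protein-coding genes 24.0% were called higher and 31.7% lower. MPO, CEBPE, ITGA2B and CD79A reached the tested mean of 0.5 FPKM only through the GNE-987 libraries, so their calls support nothing about cell identity. The part of these cell identities in the results was not tested.

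With GNE-987, in the deposited scaling, some genes of mevalonate and sterol synthesis were called higher and others were not. Of the 4 lipogenic genes only SCD was called higher. The 27 genes whose mean across libraries reached 0.5 FPKM were tested, and SC5D, a sterol desaturase, was listed at 0 in every library. A gene was called at an unadjusted P value under 0.05 with a fold change over 2 or under 0.5, from limma on log2(FPKM + 0.1), a scale that understates the change of low genes. At these thresholds 10 genes rose (MVK, MVD, IDI1, FDFT1, LSS, MSMO1, NSDHL, EBP, INSIG1 and SCD), 1 fell (INSIG2) and 16 were not called. These counts depend on the scaling of the libraries, with 12 higher and 1 lower under median-ratio scaling and 0 higher and 15 lower under scaling to GAPDH. Read against the background, 33.6% of all 16668 tested genes were called higher and 24.9% lower, and among the 10996 tested protein-coding genes the shares were 24.0% and 31.7%. The share of tested members called higher was 37.0%, close to that of all tested genes, and the share called lower was 3.70%. Median log2 fold changes were 0.50 for the members, 0.17 for all tested genes and -0.29 for protein-coding genes. In 25 of the 28 genes the control and GNE-987 libraries did not overlap, against 89.1% of all tested genes and 93.3% of the protein-coding ones, so a lack of overlap says little here. An adjusted P value under 0.05 at any fold was reached by 23 of the 27, against 77.6% of all tested genes and 83.1% of the protein-coding ones.

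**Figure D1:**
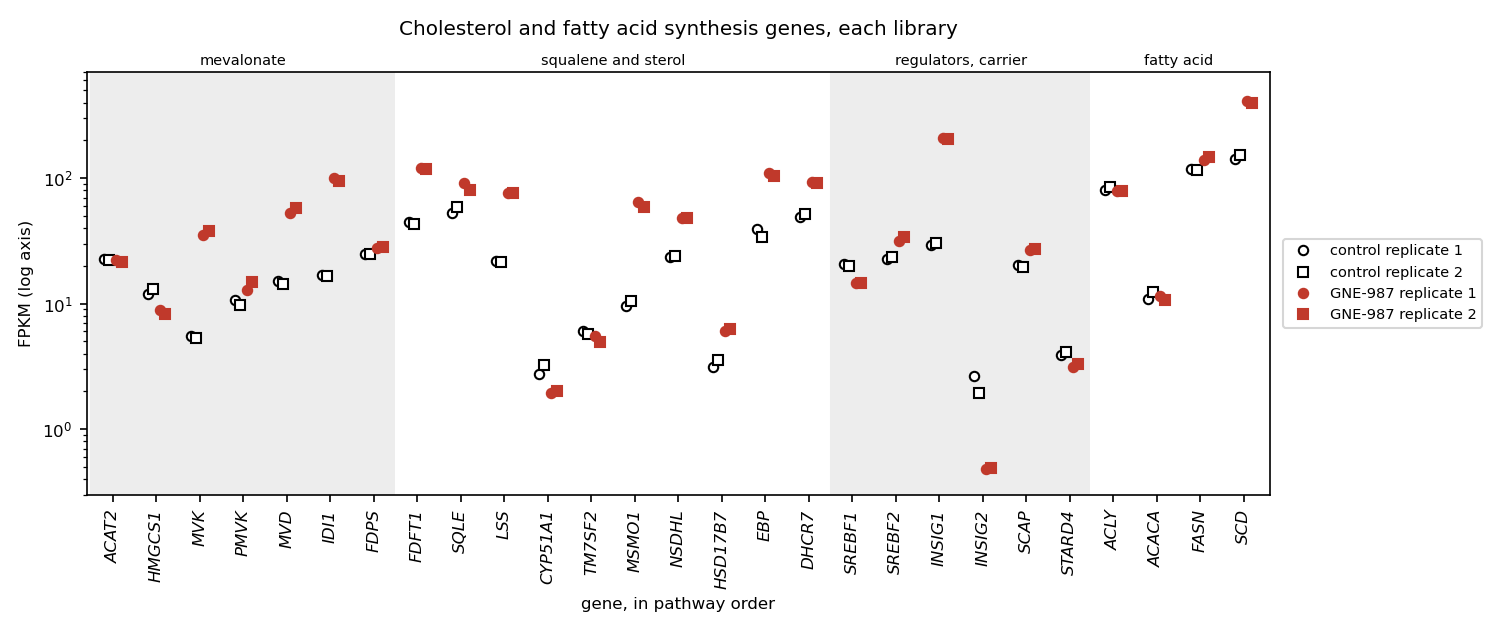
FPKM (log axis) of the 27 tested genes in each of the 4 libraries, in pathway order, with open symbols for control and filled symbols for GNE-987. INSIG1 stands at 29.4 and 30.4 FPKM in control and 210.1 and 206 FPKM with GNE-987, while INSIG2 falls from 2.63 and 1.92 to 0.484 and 0.488 FPKM.

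The scaling of the libraries decides where 0 lies, and the deposited scaling is not that of total reads. On the log2 scale the median over tested genes shifted by -0.74 with scaling to total recovered reads, by -1.40 with an equal FPKM sum in each library and by -1.77 with scaling to GAPDH, which served as the qRT-PCR reference in the study. Under every alternative the members' median, less that of tested genes, was between 0.15 and 0.49. A factor on a whole library moves both medians nearly alike, so this difference is no test of the scaling. Ratios between members within a library, which no scaling of a whole library alters, are given beside the changes. INSIG1, MVK, MSMO1 and IDI1 kept a log2 fold change above 0 under each of 18 alternatives and were called higher in 17 of them, scaling to GAPDH being the exception. INSIG2 was called lower in all 18. MVD and LSS were called higher in 15 of the 18, and lost the call with scaling to GAPDH and with an equal FPKM sum, with or without mitochondrial genes. FDFT1, EBP and SCD were called in 13, since they lost it also with quantile normalization and total recovered reads. NSDHL was called in 10, since it lost it further with a pseudocount of 1, in the test against a fold change of 2 and without control replicate 1.

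**Figure D2:**
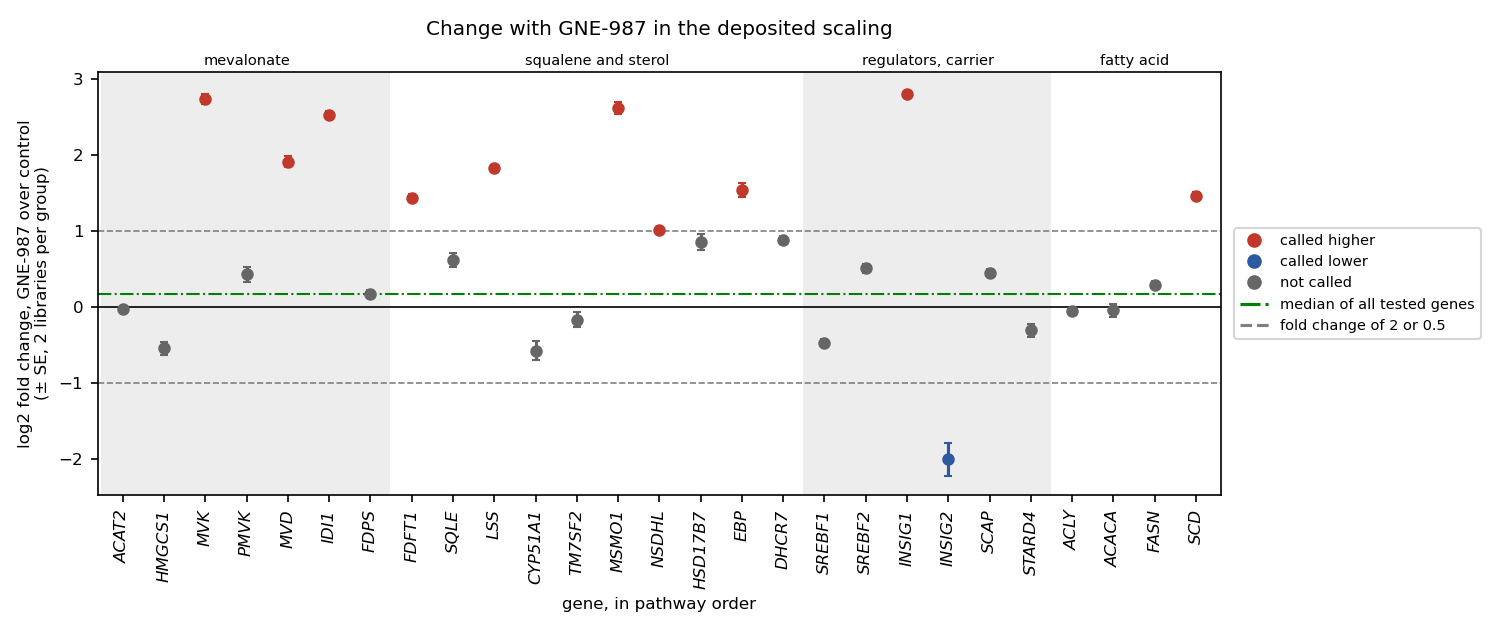
Log2 fold change of GNE-987 over control for the 27 tested genes, with bars for the standard error (n = 2 libraries per group) and colours for the call. The 4 largest increases lie between 2.53 and 2.79, well over the median of all tested genes at 0.17, and INSIG2 lies at -2.003.

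Promoters were examined for motifs that the choice of genes did not use. RefSeq promoter sequence (GRCh38.p14) was found for 24 of the 28 genes, in 33 windows of 250 bases before a start, since some genes have several starts. ACAT2, FASN, FDFT1 and SQLE had no entry in the table. Matches were sought on both strands. The CCAAT box was in 19 of the 24 genes (79.2%), against 37% of all genes of the table and 41.8% of tested protein-coding genes. By window, it was in 69.7% of the members' windows, against 32% of all 35116 windows and 33.5% of those of tested protein-coding genes. The E-box CACGTG was in 3 of the 24 genes (12.5%), against 11.3% of tested protein-coding genes. The sterol regulatory element core TCACNCCAC was in 1 gene, SREBF2 (4.17%), against 1.22% of tested protein-coding genes, and in 0.883% of all windows. Only exact matches were counted, so sterol elements with other letters were missed. The count does not say which genes lack such an element. The following stretches of the plus strand are shown because they belong to 3 of the genes that rose most, to SREBF2 and to the gene that fell. Capitals mark CCAAT boxes, written ATTGG where they lie on the other strand, and in SREBF2 also the sterol element core.
MVK (chr12:109573581-109573754, plus strand): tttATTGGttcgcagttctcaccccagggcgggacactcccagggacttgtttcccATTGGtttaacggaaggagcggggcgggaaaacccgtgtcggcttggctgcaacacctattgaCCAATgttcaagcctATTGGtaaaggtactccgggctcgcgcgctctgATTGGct
MSMO1 (chr4:165327479-165327641, plus strand): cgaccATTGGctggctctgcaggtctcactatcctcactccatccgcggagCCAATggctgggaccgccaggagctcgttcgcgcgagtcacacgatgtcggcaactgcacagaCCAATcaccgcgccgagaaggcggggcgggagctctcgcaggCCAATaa
INSIG1 (chr7:155297703-155297775, plus strand): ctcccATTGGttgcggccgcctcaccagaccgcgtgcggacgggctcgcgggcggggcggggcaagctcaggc
SREBF2 (chr22:41832965-41833010, plus strand): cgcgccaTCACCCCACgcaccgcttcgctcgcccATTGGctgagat
INSIG2 (chr2:118088296-118088451, plus strand): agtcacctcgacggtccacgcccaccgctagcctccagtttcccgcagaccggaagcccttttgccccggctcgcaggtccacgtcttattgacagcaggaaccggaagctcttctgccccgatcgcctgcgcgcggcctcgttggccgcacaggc
MVK held 5 CCAAT boxes in its window, the nearest starting 46 bases before the start and the farthest 210 bases before it. MMAB, head to head with MVK on the opposite strand, overlaps the annotated MVK gene by 326 bases and starts next to this stretch. The same boxes lie before the annotated start of MMAB, which was not called (log2 fold change 0.11). What these boxes do in either gene was not tested. MSMO1 held 4, between 185 and 34 bases before the start. The stretch of INSIG1 holds 1 CCAAT box, 170 bases before the start, and the gene has an E-box nearer the start, at 55 bases. In SREBF2 the sterol element core began 133 bases before the start and a CCAAT box 106 bases before it. The INSIG2 stretch holds no match to any of the 3 motifs, which says only that these letters are not in this window.

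Among the 18 tested members with a CCAAT box in any window, 9 were called higher and 0 lower, with a median log2 fold change of 0.94. Among the 5 without one (CYP51A1, INSIG2, PMVK, SCAP and SREBF1), 0 were called higher and 1 lower, with a median of -0.47. Over all tested protein-coding genes with a promoter entry, the split was smaller. There 24.3% of 3745 genes with a CCAAT box and 21.8% of 5223 genes without one were called higher, and the medians were -0.21 and -0.42. These counts are a description of a short list, and genes with several starts had more chances of a match. They are those of the deposited scaling. Under scaling to GAPDH 0 members were called higher. With total recovered reads HMGCS1 and STARD4, which have boxes, were called lower, as were CYP51A1, SREBF1 and INSIG2, which have none. A link between the boxes and the changes was not tested.

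**Figure D3:**
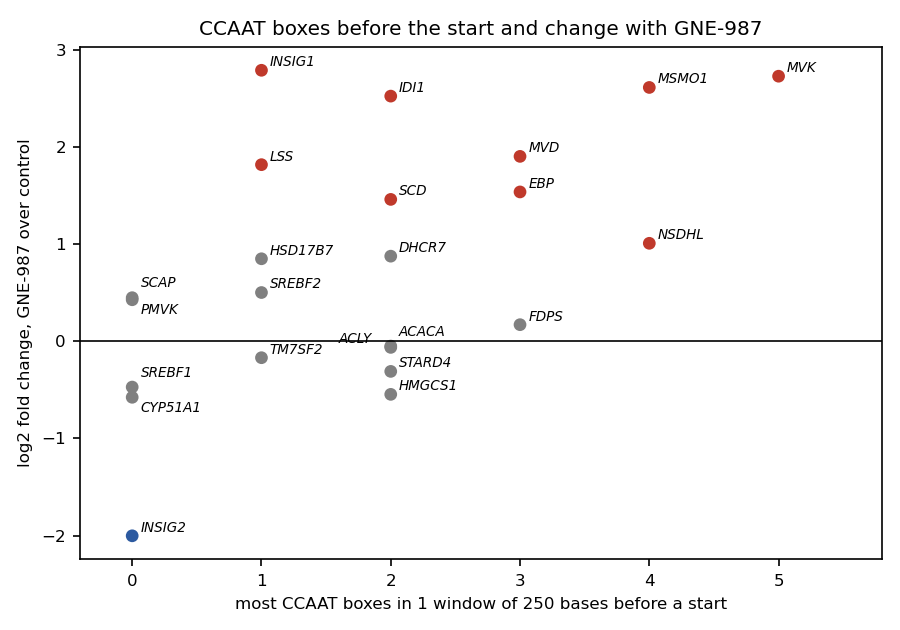
Log2 fold change of GNE-987 over control against the most CCAAT boxes found in any 1 window of 250 bases before a start, for the 23 tested genes with a promoter entry; overlapping matches on both strands count once. Red points were called higher, the blue point lower. The genes with 0 boxes lie at 0.45 or below, and FDPS and HMGCS1, with boxes, lie at 0.17 and -0.55.

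In the mevalonate pathway MVK, MVD and IDI1 rose, while ACAT2, HMGCS1, PMVK and FDPS were not called. These 3 of 7 (42.9%) called higher and 0 lower stood against 24.0% and 31.7% of tested protein-coding genes. Over the alternatives 0 to 3 were called higher and 0 to 4 lower, with 0 and 4 under scaling to GAPDH. ACAT2, a cytosolic thiolase that joins acetyl-CoA units, stood at 22.8 and 22.2 FPKM in control and 22.3 and 21.6 FPKM with GNE-987, and the groups overlapped. Its change on the log2 scale was -0.033 (SE 0.048). TCP1, a chaperonin subunit gene on the opposite strand, shares 454 exonic bases with ACAT2 and rose from 115 and 106 FPKM to 224 and 221 FPKM. HMGCS1, which makes HMG-CoA, stood at 11.9 and 13.2 FPKM in control and 8.90 and 8.19 FPKM with GNE-987. Both treated libraries lay under both controls (log2 fold change -0.55, SE 0.0868, adjusted P value 0.00648), short of the fold threshold. With scaling to the total of recovered reads HMGCS1 was called lower.

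MVK, mevalonate kinase (chromosome 12, 109573255 to 109598125, plus strand), stood at 5.53 and 5.30 FPKM in control and 35.5 and 37.6 FPKM with GNE-987. These values rest on 825 and 760 reads in control and 1921 and 2153 with GNE-987. Its mean rose from 5.42 ± 0.161 to 36.6 ± 1.55 FPKM (SD, n = 2), or 6.75-fold, with a log2 fold change of 2.73 (SE 0.0613, adjusted P value 0.000128). MMAB, a cobalamin enzyme, lies head to head with MVK on the opposite strand and shares 225 exonic bases with it. MMAB was at 5.79 and 5.71 FPKM in control and 5.99 and 6.47 FPKM with GNE-987, and was not called (log2 fold change 0.11, SE 0.0757, adjusted P value 0.244). Within a library, MVK stood at 0.466 and 0.402 times the level of HMGCS1 in control and at 3.98 and 4.59 times with GNE-987.

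PMVK, the kinase that follows MVK, was at 10.7 and 9.82 FPKM in control and 12.9 and 14.9 FPKM with GNE-987. The treated libraries were the higher pair, but its log2 fold change of 0.43 (SE 0.1, adjusted P value 0.0203) was under the fold threshold. MVD, mevalonate diphosphate decarboxylase (chromosome 16, 88651935 to 88663161, minus strand), stood at 15.3 and 14.3 FPKM in control and 53.1 and 58.2 FPKM with GNE-987. It rose 3.77-fold, with a log2 fold change of 1.91 (SE 0.0721, adjusted P value 0.000226). CYBA, an oxidase subunit gene that lies 851 bases past the 3′ end of MVD on the same strand, was at 41.0 and 37.9 FPKM in control and 156 and 153 FPKM with GNE-987, a log2 fold change of 1.96. The part of reads that run between these neighbours was not tested.

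IDI1, isopentenyl diphosphate isomerase (chromosome 10, 1039152 to 1049119, minus strand), had 17.0 and 16.6 FPKM in control and 99.5 and 95.5 FPKM with GNE-987. The treated libraries lay far above the controls, with a 5.79-fold rise and a log2 fold change of 2.53 (SE 0.0458, adjusted P value 0.000105). The noncoding gene IDI2-AS1 overlaps IDI1 on the opposite strand and shares 643 exonic bases with it. IDI2-AS1 was at 0.034 and 0.177 FPKM in control and 75.6 and 68.0 FPKM with GNE-987. The sources do not say that counting used strand, so reads in the shared stretch cannot be told apart between these genes. FDPS, farnesyl diphosphate synthase, was at 24.7 and 24.9 FPKM in control and 27.7 and 28.2 FPKM with GNE-987. Its log2 fold change of 0.17 (SE 0.0427, adjusted P value 0.0241) equals the median of all tested genes. IDI1 thus went from 0.69 and 0.668 times the level of FDPS in control to 3.59 and 3.39 times with GNE-987.

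Among the 10 tested genes that turn farnesyl diphosphate into cholesterol, 5 (50%) rose and 0 fell, against 24.0% and 31.7% of tested protein-coding genes. The counts were 7 and 0 under median-ratio scaling, 2 and 0 under quantile normalization, 1 and 2 with an equal FPKM sum and 0 and 3 under scaling to GAPDH. FDFT1, squalene synthase (chromosome 8, 11795573 to 11839395, plus strand), was at 45.1 and 43.1 FPKM in control and 120 and 119 FPKM with GNE-987. It rose 2.71-fold (log2 fold change 1.44, SE 0.043, adjusted P value 0.000177), on 5397 and 4957 reads in control and 5212 and 5459 with GNE-987. The read numbers were thus alike in both groups, and the FPKM values of the treated libraries were divided by lower totals. With scaling to the total of recovered reads its log2 fold change was 0.655, under the fold threshold, and with GAPDH it was -0.416. A noncoding gene, ENSG00000255046, shares 217 exonic bases with FDFT1 on the opposite strand and was at 0.199 and 0.539 FPKM in control and 5.15 and 4.98 FPKM with GNE-987. CTSB, a lysosomal protease gene on the opposite strand 3128 bases past its 3′ end, went from 12.2 and 12.2 FPKM to 81.2 and 79.2 FPKM.

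SQLE, squalene epoxidase, stood at 53.1 and 58.8 FPKM in control and 91.3 and 80.1 FPKM with GNE-987. The groups did not overlap, but its log2 fold change of 0.61 (SE 0.0933, adjusted P value 0.00566) was under the fold threshold. LSS, lanosterol synthase (chromosome 21, 46188141 to 46228824, minus strand), rose from 21.7 and 21.3 FPKM to 76.2 and 76.5 FPKM. This was a 3.54-fold rise with close replicates (log2 fold change 1.82, SE 0.0396, adjusted P value 0.000125). Noncoding genes on the opposite strand share 448 and 122 exonic bases with LSS. CYP51A1, the lanosterol demethylase that acts next, went the other way without passing the fold threshold, at 2.76 and 3.25 FPKM in control and 1.94 and 2.02 FPKM with GNE-987 (log2 fold change -0.58, SE 0.129, adjusted P value 0.0177). It rests on 58 and 64 reads in the GNE-987 libraries. It overlaps AKAP9 on the opposite strand, with 108 shared exonic bases, and AKAP9 fell from 2.76 and 3.29 FPKM to 0.808 and 0.796 FPKM. On the same strand, 2 further annotated genes share 2844 and 2827 exonic bases with CYP51A1, the first listed at 0 in every library and the second not analysed here. How reads in these shared stretches were counted is not given in the sources used here, which bears on the level of CYP51A1 and on the ratios built on it. The ratio of LSS to CYP51A1 was 7.87 and 6.56 in the control libraries and 39.4 and 37.8 with GNE-987.

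TM7SF2, a sterol reductase, was at 6.09 and 5.72 FPKM in control and 5.55 and 4.95 FPKM with GNE-987, and did not pass (log2 fold change -0.17, SE 0.0937, adjusted P value 0.174). MSMO1, the methyl sterol oxidase (chromosome 4, 165327667 to 165343164, plus strand), had the largest increase of the sterol enzymes, from 9.58 and 10.5 FPKM to 64.5 and 59.4 FPKM. It rose 6.18-fold (log2 fold change 2.62, SE 0.0755, adjusted P value 0.000167), on 638 and 669 reads in control and 1560 and 1515 with GNE-987. No annotated gene overlaps MSMO1 or lies within 5 kb past its 3′ end. MSMO1 stood at 3.47 and 3.21 times the level of CYP51A1 in control and at 33.3 and 29.3 times with GNE-987.

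NSDHL and HSD17B7 encode enzymes that work with MSMO1 in removing methyl groups. NSDHL (chromosome X, 152830967 to 152869729, plus strand) went from 23.5 and 24.03 FPKM to 48.0 and 47.9 FPKM, a log2 fold change of 1.0105 (SE 0.0414, adjusted P value 0.000254) that lies at the threshold. It was not called in 8 of the 18 alternatives, and its value was 0.231 with total recovered reads and -0.839 with GAPDH. HSD17B7 was at 3.13 and 3.59 FPKM in control and 6.01 and 6.24 FPKM with GNE-987, just under the threshold (log2 fold change 0.85, SE 0.102). Its near-copy HSD17B7P2 was listed at 0 in both controls and at 0.0794 and 0.226 FPKM with GNE-987.

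EBP, the sterol isomerase (chromosome X, 48521799 to 48528716, plus strand), rose from 39.5 and 34.2 FPKM to 111 and 103.5 FPKM, which is 2.91-fold (log2 fold change 1.54, SE 0.0902, adjusted P value 0.000491). It was not called with quantile normalization (0.872) or total recovered reads (0.759) and turned with GAPDH (-0.312). An overlapping gene on the same strand that shares 644 exonic bases with EBP was not analysed here. DHCR7, the last reductase of the pathway, was at 48.7 and 52.0 FPKM in control and 93.6 and 91.5 FPKM with GNE-987. Both treated libraries lay above both controls, with a log2 fold change of 0.88 (SE 0.0513, adjusted P value 0.000488) that did not reach the fold threshold.

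The INSIG genes lay at the ends of the members' range in the deposited scaling. INSIG1 (chromosome 7, 155297776 to 155310235, plus strand) went from 29.4 and 30.4 FPKM in control to 210.1 and 206 FPKM with GNE-987, on 2472 and 2456 reads against 6410 and 6629. It rose from 29.9 ± 0.709 to 208 ± 3.03 FPKM (SD, n = 2), or 6.95-fold, the largest rise among the members in the deposited scaling (log2 fold change 2.79, SE 0.041, adjusted P value 9.61e-05). With quantile normalization MVK, MSMO1 and IDI1 lay above INSIG1, at 2.54, 2.31 and 2.09 against 2.05. Of all tested genes 81.0% had a lower log2 fold change, and of tested protein-coding genes 89.9%. No annotated gene overlaps INSIG1 or lies within 5 kb past its 3′ end. INSIG2 (chromosome 2, 118088452 to 118110997, plus strand) fell from 2.63 and 1.92 FPKM to 0.484 and 0.488 FPKM, on 239 and 168 reads against 16 and 17. The control mean was 4.68 times that of GNE-987, and the log2 fold change was -2.003 (SE 0.216, adjusted P value 0.00212). The ratio of INSIG1 to INSIG2 within a library was 11.2 and 15.8 in control and 434 and 422 with GNE-987.

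The SREBP genes moved apart by less. SREBF1 was at 20.5 and 20.1 FPKM in control and 14.6 and 14.6 FPKM with GNE-987 (log2 fold change -0.47, SE 0.0471, adjusted P value 0.00172). SREBF2 was at 22.8 and 23.3 FPKM in control and 31.7 and 33.8 FPKM with GNE-987 (log2 fold change 0.50, SE 0.0542, adjusted P value 0.00211). Neither passed the fold threshold, though the groups did not overlap in either gene. The ratio of SREBF2 to SREBF1 was 1.11 and 1.16 in control and 2.17 and 2.31 with GNE-987. SREBF1 shares 556 exonic bases with RAI1 on the opposite strand, which fell from 4.19 and 4.22 FPKM to 0.543 and 0.514 FPKM. SREBF2 shares 731 with the noncoding SREBF2-AS1, which rose from 1.61 and 1.54 FPKM to 4.96 and 4.70 FPKM.

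SCAP, the escort of the SREBPs, was at 20.3 and 19.4 FPKM in control and 26.9 and 27.5 FPKM with GNE-987 (log2 fold change 0.45, SE 0.05, adjusted P value 0.0023). STARD4, a carrier of cholesterol through the cytosol, was at 3.91 and 4.12 FPKM in control and 3.14 and 3.31 FPKM with GNE-987 (log2 fold change -0.31, SE 0.0883, adjusted P value 0.0358). Both genes had groups that did not overlap and changes under the fold threshold. Of these 6 regulator and carrier genes 1 (16.7%) rose and 1 fell, against 24.0% and 31.7% of tested protein-coding genes. The counts were 1 and 4 with an equal FPKM sum and 0 and 5 under scaling to GAPDH.

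Of the 4 lipogenic genes 1 (25%) rose and 0 fell, a share near the 24.0% of tested protein-coding genes called higher. The counts were 0 and 0 with quantile normalization or total recovered reads and 0 and 3 with an equal FPKM sum or GAPDH. SCD, FASN and ACLY had the highest levels of all members in control. SCD, the desaturase that makes oleate from stearate (chromosome 10, 100347233 to 100364826, plus strand), ranked first in both groups, at 143 and 152 FPKM in control and 411 and 399.7 FPKM with GNE-987. It rose 2.76-fold (log2 fold change 1.46, SE 0.0494, adjusted P value 0.000199), on 17595 and 17988 reads in control and 18432 and 18916 with GNE-987. SCD was at -0.021 with quantile normalization, at 0.681 with total recovered reads and at -0.391 with GAPDH, with no call in any of these.

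The other lipogenic enzymes, which act before SCD, were not called. ACLY, which makes cytosolic acetyl-CoA, was at 79.7 and 84.5 FPKM in control and 78.6 and 78.6 FPKM with GNE-987 (log2 fold change -0.062, SE 0.0466, adjusted P value 0.286). ACACA, acetyl-CoA carboxylase, was at 10.8 and 12.3 FPKM in control and 11.6 and 10.8 FPKM with GNE-987, with overlapping groups. FASN, fatty acid synthase, was at 118 and 116 FPKM in control and 139 and 147 FPKM with GNE-987, above both controls but short of the fold threshold (log2 fold change 0.29, SE 0.0467, adjusted P value 0.00688). The ratio of SCD to FASN went from 1.20 and 1.31 in control to 2.95 and 2.71 with GNE-987.

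**Figure D4:**
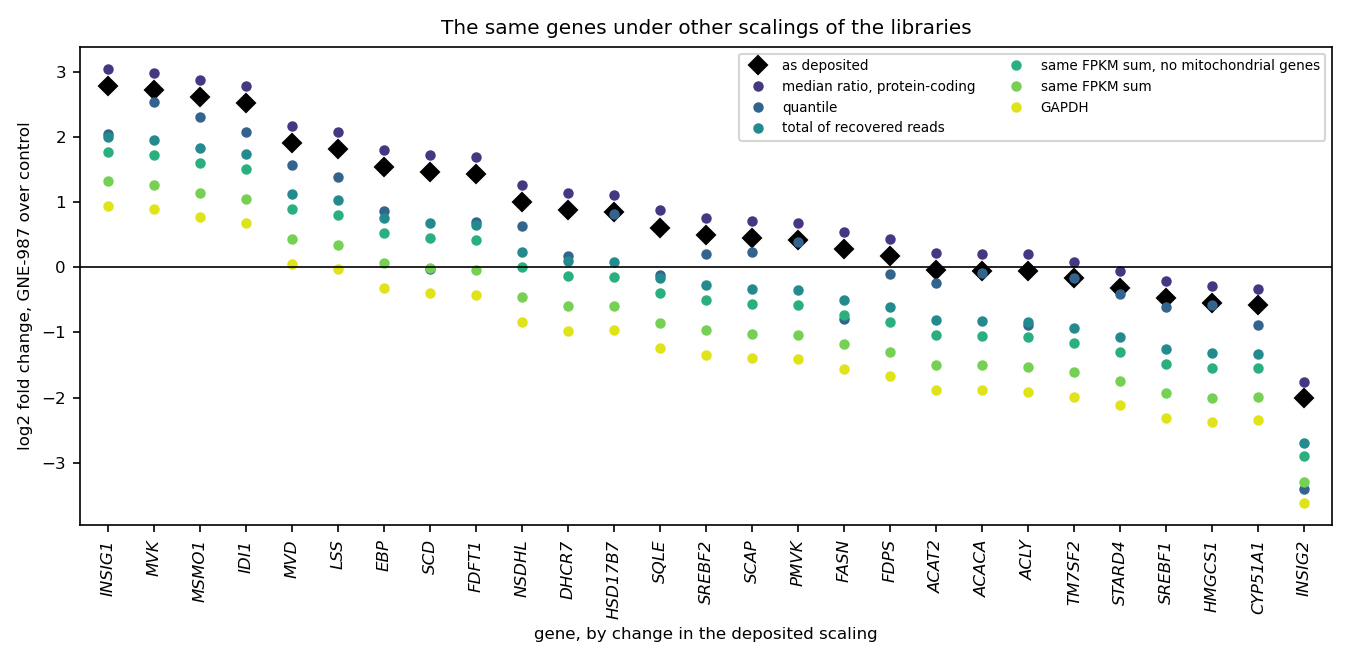
Log2 fold change of the 27 tested genes in the deposited scaling (black diamonds) and under 6 other scalings of the libraries. With scaling to GAPDH, IDI1 is still at 0.68 and MVD at 0.058, while LSS is at -0.029.

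Genes around the pathway were taken from 4 further lists. The list with the most calls in 1 direction was that of 16 enzymes that draw on farnesyl and geranylgeranyl diphosphate or modify proteins and RNA with isoprenoids. Of these, 10 were called lower and 0 higher, against 31.7% lower among tested protein-coding genes, and the list's median log2 fold change was -1.25. All 16 lay under the median of all tested genes, as did 6681 of the 10996 tested protein-coding genes. The highest of the 16, at -0.21, lay above the protein-coding median of -0.29. Under the 18 alternatives between 4 and 16 were called lower and 0 higher. NUS1, a subunit of the transferase that makes dolichol, fell from 23.5 and 21.7 FPKM to 3.94 and 3.61 FPKM (log2 fold change -2.55, SE 0.0815). TRIT1, which puts an isopentenyl group on tRNA, fell from 5.64 and 5.71 FPKM to 1.28 and 1.23 FPKM. FNTA, the subunit shared by the enzymes that farnesylate and geranylgeranylate proteins, fell from 4.85 and 4.93 FPKM to 1.11 and 1.08 FPKM.

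Among 12 factors that process SREBP or turn over its regulators, 2 were called higher (16.7%) and 3 lower (25%), with a median of -0.39. Both shares were under those of tested protein-coding genes, 24.0% and 31.7%, and over the alternatives 0 to 2 were called higher and 2 to 10 lower. MBTPS2, the site-2 protease that releases active SREBP, fell from 2.65 and 2.74 FPKM to 0.322 and 0.305 FPKM (log2 fold change -2.76, SE 0.16, adjusted P value 0.000481). FBXW7, a ubiquitin ligase subunit that acts on nuclear SREBP, rose from 1.22 and 1.25 FPKM to 2.82 and 3.17 FPKM.

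Of 18 genes of sterol uptake, storage, export and LXR response, 13 were tested, with 3 called higher (23.1%), 5 lower (38.5%) and a median of -0.51. These shares were near the 24.0% and 31.7% of tested protein-coding genes, and over the alternatives 1 to 6 were called higher and 1 to 10 lower. NPC1, which moves cholesterol out of lysosomes, rose from 5.16 and 5.50 FPKM to 19.9 and 20.1 FPKM (log2 fold change 1.89, SE 0.0625). NR1H2, the sterol receptor LXR-beta, fell from 9.05 and 9.49 FPKM to 2.42 and 2.26 FPKM. CYP27A1, a sterol hydroxylase, was called higher from 0 and 2 reads in the control libraries to 50 and 56 with GNE-987, at 2.00 and 2.13 FPKM. It passed the filter on low values only through the GNE-987 libraries, so its call, 1 of the 3, supports nothing about the list.

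Of 20 genes of fatty acid elongation, desaturation and activation, 14 were tested, with 3 called higher (21.4%), 6 lower (42.9%) and a median of -0.74. Tested protein-coding genes had 24.0% and 31.7%, and over the alternatives 0 to 4 were called higher and 5 to 11 lower, with 0 and 11 under scaling to GAPDH. OXSM, a mitochondrial fatty acid synthase enzyme, fell from 6.46 and 6.24 FPKM to 1.25 and 1.32 FPKM. FADS1, the delta-5 desaturase, fell from 35.2 and 40.8 FPKM to 8.17 and 8.83 FPKM (log2 fold change -2.15, SE 0.0977). ELOVL6, which lengthens palmitate, fell from 7.22 and 7.32 FPKM to 1.54 and 1.61 FPKM, while SCD, which takes its product, rose.

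**Figure D5:**
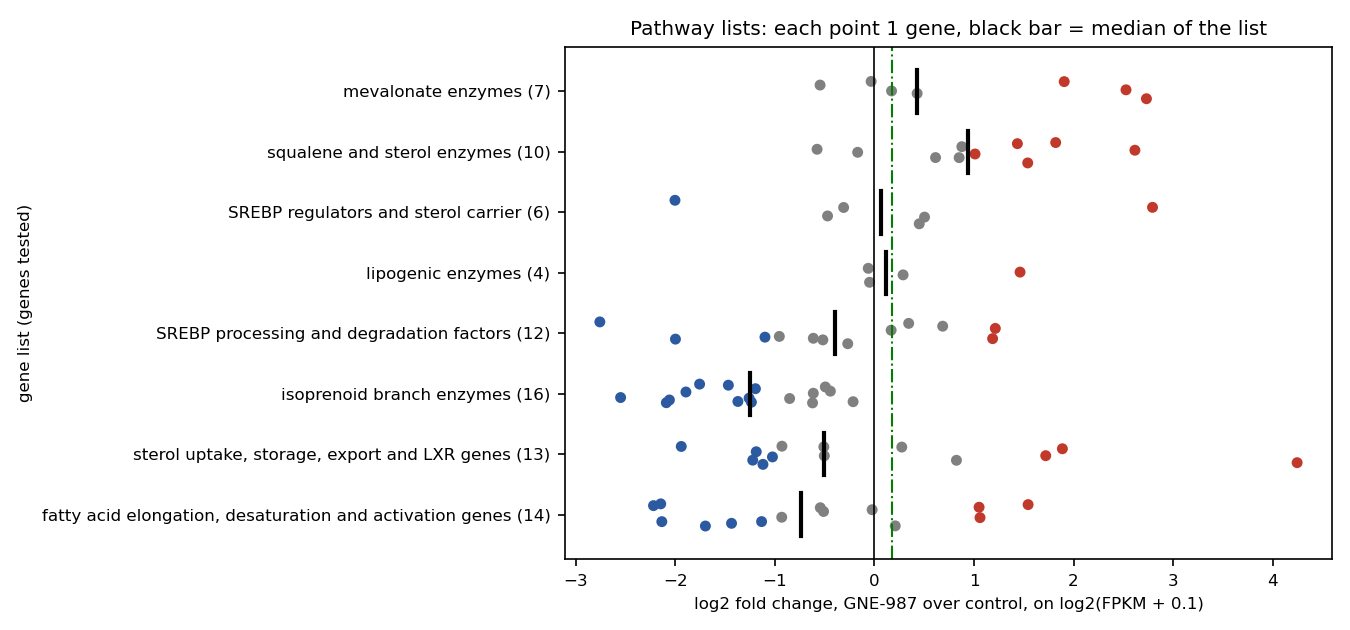
Log2 fold change of GNE-987 over control for the tested genes of the 4 member groups and of 4 further lists, 1 point per gene (red called higher, blue lower, grey not called). Black bars are list medians, from 0.94 for squalene and sterol enzymes to -1.25 for isoprenoid branch enzymes, and the dash-dotted line is the median of all tested genes at 0.17.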

How the data were processed

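RNA-seq values of 2 control and 2 GNE-987 libraries were analysed. The authors filtered reads, mapped them with HISAT (HISAT2 2.0.5 on hg38 per the submitters' processing notes) and deposited FPKM values for each gene and library. The counting program and the annotation are not given in the sources used here. Groups and replicate numbers came from the labels, and dose and time from figure legends. The members and lists were chosen with earlier results of these data known.

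Values were transformed to log2(FPKM + 0.1), and limma 3.58.1 (R 4.3.3; trend, no replicate block) was run on genes whose mean reached 0.5 FPKM. P values were Benjamini-Hochberg adjusted over all 16668 tested genes. Calls used P under 0.05 and a fold above 2 in either direction. Reads were recovered from FPKM steps (tolerance 0.01). At GENCODE release 44 exon lengths 53.4% of listed genes above 0 gave whole reads in each library, and for most others another whole length was found, which is a weaker test. FDFT1, MVK, MSMO1, IDI1, SCD and INSIG2 are among these. Named genes were all 28 members, up to 3 called genes of largest change per further list (mean of at least 1 FPKM; 1 of them is not reported here), and, where their values stand beside a member, genes overlapping it or within 5 kb past its 3′ end; others of these are not named. Read recovery and calling were tested on simulated data. The recovery test used annotated lengths only, so it did not cover reads found at another whole length. The test of calling changed few genes and held no shift in scaling, unlike these data. Same-numbered libraries did not deviate together (correlation 0.00537), so the numbers were not treated as pairs. Read numbers carry counting error only.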

Additional observations from a re-analysis of the deposited data

How the results depend on the processing

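Alternatives numbered 17 planned and 1 added after seeing the data (the same FPKM sum without mitochondrial genes). Pseudocounts, filters, adjusted P values, limma-voom on recovered reads and the replicate block (10 members higher, 1 lower, 9853 tested genes called) kept each member's direction, and only NSDHL lost its call, with a pseudocount of 1, in the test against a fold change of 2 and without control replicate 1. With each library left out in turn, 9 to 10 members were higher and 1 lower, the members' median was between 0.4573 and 0.531, 8682 to 9488 tested genes were called, and ACACA alone turned (range -0.139 to 0.0413), to 0.0413 without control replicate 2 and 0.00154 without GNE-987 replicate 2.

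Scaling changed the counts. Members called higher and lower, with the median, were 6, 1 and 0.169 with quantile normalization, 12, 1 and 0.765 with median-ratio scaling, 6, 5 and -0.276 with total recovered reads, 4, 9 and -0.507 with the FPKM sum without mitochondrial genes, 4, 13 and -0.963 with the FPKM sum, and 0, 15 and -1.344 with GAPDH. The shift comes from the scaling itself. Less the median of tested genes, the members' median was between 0.15 and 0.49, a difference that a factor on a whole library can hardly change. In all tested genes, 5602 were higher and 4148 lower as deposited, against 3031 and 9738 with GAPDH, 3320 and 8751 with the FPKM sum, 3843 and 7376 without mitochondrial genes, 4177 and 6659 with recovered reads, 4235 and 5464 with quantile normalization and 6215 and 3276 with median-ratio scaling.

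Directions turned as follows. With quantile normalization FDPS was at -0.108, SQLE at -0.122, FASN at -0.795 and SCD at -0.021. With median-ratio scaling ACAT2 was at 0.228, TM7SF2 at 0.0896, ACLY at 0.2002 and ACACA at 0.212. With recovered reads PMVK was at -0.346, FDPS at -0.607, SQLE at -0.167, SREBF2 at -0.276, SCAP at -0.328 and FASN at -0.493. Without mitochondrial genes PMVK was at -0.577, FDPS at -0.838, SQLE at -0.399, NSDHL at -0.000622, HSD17B7 at -0.141, DHCR7 at -0.135, SREBF2 at -0.507, SCAP at -0.56 and FASN at -0.725. With the FPKM sum PMVK was at -1.031, FDPS at -1.294, FDFT1 at -0.0341, SQLE at -0.856, NSDHL at -0.457, HSD17B7 at -0.589, DHCR7 at -0.592, SREBF2 at -0.963, SCAP at -1.016, FASN at -1.183 and SCD at -0.00877. With GAPDH PMVK was at -1.41, FDPS at -1.675, FDFT1 at -0.416, SQLE at -1.238, LSS at -0.0294, NSDHL at -0.839, HSD17B7 at -0.963, EBP at -0.312, DHCR7 at -0.974, SREBF2 at -1.344, SCAP at -1.396, FASN at -1.565 and SCD at -0.391. INSIG2 and CYP51A1 rest on under 100 reads per GNE-987 library.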
